A study of Mus musculus with 12 samples.

Results

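Doxycycline feed in nontransgenic (Non) cortex was the comparison, with the 2 Non + Dox arrays set against the 3 Non + Veh arrays, as the sample labels give them. These 5 arrays are all the Non arrays of a series of 12, which also holds arrays from Tg (rTg4510) mice. Non + Dox mice, labelled wild type FVB/NJ, were fed 200 ppm doxycycline for 35 days from 3.5 months of age, and both arrays were from males. Non + Veh mice, also labelled wild type FVB/NJ, were on normal feed over the same 35 days, and their arrays were from 1 male and 2 females. Total RNA of brain cortex was hybridised to Clariom D arrays, and values are log2 intensities, so a difference of 1 is a 2-fold difference. Rows were transcript clusters (the probes read as 1 transcript unit) with 1 gene symbol and a signal over the study's minimum on any of the 11 arrays kept after its quality control, which left 12745 of 30638. The 3 Tg + Dox arrays (1 male and 2 females) and 3 Tg + Veh arrays (2 males and 1 female) entered the same fit. Doxycycline dose, days of feed and starting age were as in the matching Non group. Sex was thus unbalanced in Tg as well, with more females on doxycycline, the other way round from Non. In Tg mice a Camk2a promoter drives the tTA activator in forebrain excitatory neurons, tTA switches on human mutant tau, and doxycycline shuts that off, whereas Non mice have no tau transgene to suppress. The number of mice behind each array is not given in the sources used here, so p-values measure the spread between these samples.

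Doxycycline is a tetracycline antibiotic that blocks bacterial ribosomes. It is also known to slow the related ribosomes of mitochondria, to bind divalent metals, to inhibit matrix metalloproteinases and to dampen microglial inflammation. In tetracycline-controlled mouse lines a nontransgenic arm on the same feed is the usual control for such actions of the drug.

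Label checks came first. Xist, a noncoding RNA made from the inactive X chromosome, was at 5.62 and 5.76 on the Non + Dox arrays, and at 15.43, 6.09 and 15.59 on Non + Veh arrays 1, 2 and 3, so it was high on the 2 arrays labelled female and low on the rest. Camk2a, a kinase of forebrain excitatory neurons, was at 18.19 and 18.29 in Non + Dox and at 18.13, 18.31 and 18.17 in Non + Veh, and Slc17a7, the vesicular glutamate transporter of cortical neurons, was at 14.42 and 14.63 in Non + Dox and at 14.36, 14.48 and 14.34 in Non + Veh. Esyt2, Ptprn2 and Wdr60, genes at the insertion site of the tTA transgene, separated the arrays in another way. Esyt2 was at 11.23 on Non + Dox 1 and 9.61 on Non + Dox 2, and at 10.86, 10.90 and 9.60 on Non + Veh arrays 1 to 3. Ptprn2 (10.44 on both) and Wdr60 (6.62 and 6.69) were likewise low on Non + Dox 2 and Non + Veh 3. On the 6 Tg arrays of the fit Esyt2 ranged between 9.45 and 9.74, Ptprn2 between 10.17 and 10.52 and Wdr60 between 6.55 and 6.78. The arrays labelled Non + Dox 2 and Non + Veh 3 thus had values like those of Tg arrays at that site, which goes against the label wild type. Fgf14, at the insertion site of the tau transgene, was at 12.05 and 12.01 on them, near the other Non arrays and above the 10.85 to 11.26 of the Tg arrays. They are 1 array of each feed group, and both enter every difference in Non cortex unless stated. Feed and sex were partly confounded, since Non + Dox held no female array.

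No row passed the test for feed in Non cortex. Of 12745 rows, 0 (0%) had a Benjamini-Hochberg adjusted p under 0.05 in limma, the smallest adjusted p being 0.234. At an unadjusted p under 0.05 there were 1354 rows (10.6%), 840 of them higher (6.59%) and 514 lower (4.03%) in Non + Dox. With the arrays quantile normalized, the same threshold gave 700 higher and 726 lower, so that the share of higher rows was 49.1%, against 62% in the values as deposited. The log2 intensities of Non + Dox and Non + Veh did not overlap in 3156 rows (24.8%), with Non + Dox higher in 1873 (14.7%) and lower in 1283 (10.1%). A row's SD had a median of 0.0717 in Non + Dox and 0.0714 in Non + Veh, and the standard error of a feed difference a median of 0.0876. With sex as a term 0 rows passed and 1024 (8.03%) were at an unadjusted p under 0.05. Leaving out 1 array gave 3 rows that passed without Non + Dox 2 and 2 without Non + Veh 3, all predicted genes, and 0 otherwise. A difference of 1 or more on the log2 scale was seen in 39 rows.

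One named gene, Npy2r, a presynaptic neuropeptide Y receptor of chromosome 3, passed in an alternative fit. Its log2 intensity was 8.02 and 7.97 in Non + Dox, against 6.87, 6.88 and 6.92 in Non + Veh. Every Non + Dox value lay above every Non + Veh value, and the arrays of each group differed by far less than the groups did. A lack of overlap was a condition for naming Npy2r and the other genes of largest change below. It was seen in 24.8% of all rows. The Npy2r difference was 1.11, a 2.16-fold higher level in Non + Dox (standard error 0.21, adjusted p = 0.234 in limma over all 11 arrays). Fitted on the 5 Non arrays alone, it was the 1 row of 12745 with an adjusted p under 0.05, at 0.0432. With sex as a term the difference was 1.02, and without Non + Dox 2 and Non + Veh 3 it was 1.15.

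Among the 12 named genes with the largest higher values in Non + Dox were several that act at synapses and on neuronal surfaces. Ndst4, an enzyme that sulphates heparan sulphate chains, was at 7.68 and 7.91 in Non + Dox and at 6.33, 6.59 and 6.69 in Non + Veh, a difference of 1.26. All vehicle arrays of Ndst4 were below the signal minimum, so it was tested only through doxycycline arrays, where it was high. Shisa6, an auxiliary protein of AMPA receptors, was at 9.37 and 10.25 in Non + Dox, against 8.60, 8.60 and 8.50 in Non + Veh, a difference of 1.24. The Non + Dox arrays were higher than all Non + Veh arrays in both genes, and for Shisa6 the Non + Dox arrays also lay far apart from each other. Syt10, a calcium sensor of vesicle exocytosis, was at 10.43 and 10.14 in Non + Dox and at 8.90, 9.38 and 8.88 in Non + Veh. Epha6, an ephrin receptor, was at 11.73 and 11.34 in Non + Dox, against 10.58, 10.40 and 9.95 in Non + Veh. Both differed by 1.23, with an adjusted p of 0.234 for Syt10 and 0.256 for Epha6. Of the rest, Htr2c, a serotonin receptor, was higher by 0.91, Doc2b, another calcium sensor of release, by 0.90, and Nrp2, a semaphorin receptor, by 0.89. Pkp2, a desmosomal plakophilin, Slc44a5, a choline transporter-like protein, and Tnfaip8l3, a lipid transfer protein, were higher by 1.12, 1.11 and 0.87.

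The largest named difference was that of mt-Tk, the lysine transfer RNA of the mitochondrial genome. It was at 17.55 and 17.30 in Non + Dox and at 15.64, 16.06 and 16.11 in Non + Veh, 1.49 higher (standard error 0.36, adjusted p = 0.25), and 1.11 higher with sex as a term. The groups did not overlap. In Tg cortex the same cluster differed by 0.02 between Tg + Dox and Tg + Veh, but the arrays of each Tg group lay far apart. They were at 17.0, 16.3 and 15.7 in Tg + Dox and at 16.1, 16.8 and 16.0 in Tg + Veh. One other cluster of the mitochondrial genome was tested, mt-Rnr1, a ribosomal RNA, which was at 19.90 and 19.93 in Non + Dox and at 19.93, 19.93 and 19.93 in Non + Veh.

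Ion channel subunits and a vesicle protein were among the 12 named genes with the largest lower values in Non + Dox. Cdh12, a cadherin of chromosome 15, was at 11.91 and 11.50 in Non + Dox, against 12.98, 13.00 and 12.69 in Non + Veh. It was 1.18 lower on the log2 scale, a 2.27-fold lower level (change -1.18, standard error 0.21, adjusted p = 0.234). Kcnab3, a beta subunit of potassium channels, was at 8.94 and 8.13 in Non + Dox and at 9.46, 9.62 and 9.27 in Non + Veh, a change of -0.92. All Non + Dox values were below all Non + Veh values in both genes. Scn4b, a sodium channel beta subunit, was at 7.71 and 6.97 in Non + Dox, against 8.22, 8.03 and 7.75 in Non + Veh, so Non + Dox 1 lay just under the lowest Non + Veh array. Vamp1, a vesicle SNARE protein, differed by -0.74, Kcnh5, an ether-a-go-go potassium channel, by -0.71, and Mapk11, the p38 beta kinase, by -0.97. Sgpp2, a sphingosine phosphate phosphatase, Abcd2, a peroxisomal fatty acid transporter, and Gcnt4, a glycosyltransferase, differed by -0.70, -0.65 and -0.64. Medag, Plcxd2 and Traj14, a joining segment of the T cell receptor locus, made up the rest, with changes of -0.76, -0.66 and -0.87.

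Over these 24 genes the adjusted p lay between 0.234 and 0.391. With sex as a term the 12 higher genes differed by 0.71 to 1.27 and the 12 lower ones by -1.13 to -0.47. An unadjusted p under 0.05 with that term was a condition for naming them, so these ranges are no separate test of sex. Without Non + Dox 2 and Non + Veh 3, 6 of the 24 had a difference over 1.5 times smaller, Shisa6 (0.77), Pkp2 (0.70), Kcnab3 (-0.60), Kcnh5 (-0.41), Scn4b (-0.42) and Plcxd2 (-0.31). Without Non + Dox 2 alone, Shisa6 differed by 0.81, Pkp2 by 0.73, Kcnab3 by -0.51, Kcnh5 by -0.30, Scn4b by -0.29 and Plcxd2 by -0.22.

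**Figure D1:**
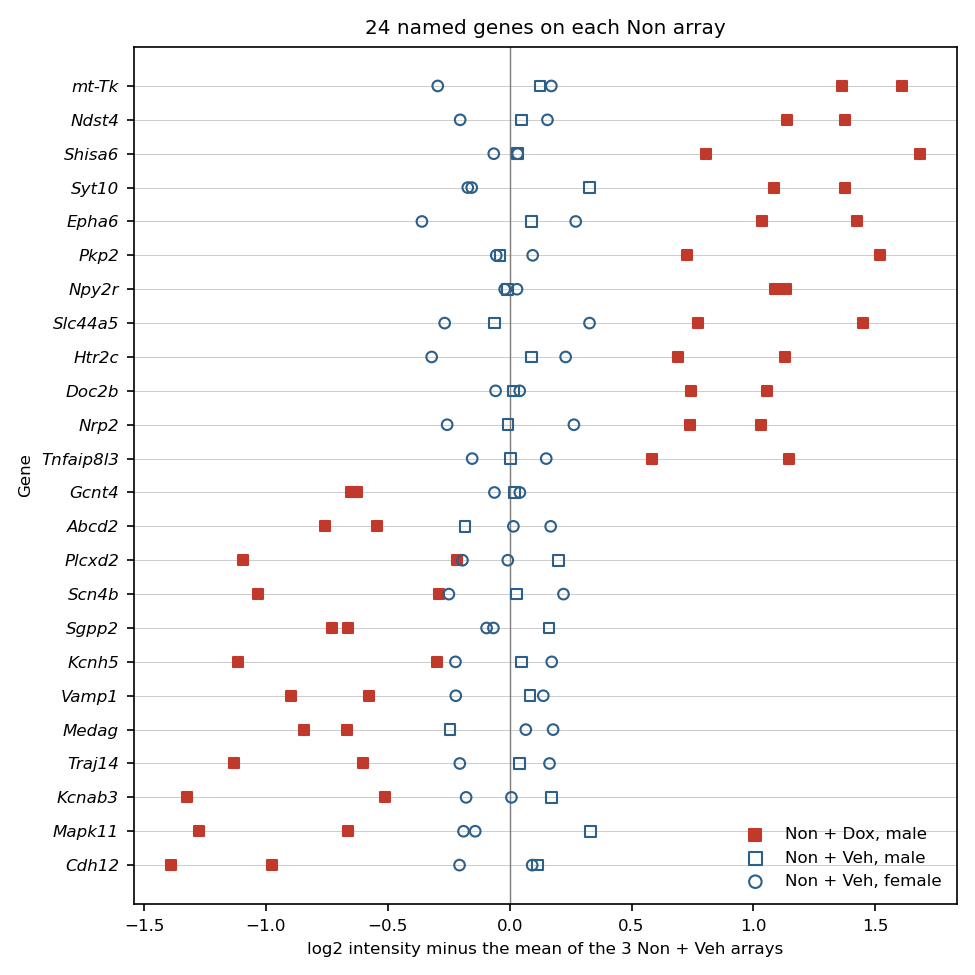
Log2 intensity of the 24 named genes on each of the 5 Non arrays, as the difference from the mean of the 3 Non + Veh arrays (x axis), 1 gene a row. Filled squares are the Non + Dox arrays (both male), open squares the male and open circles the female Non + Veh arrays. The Non + Dox points do not overlap the Non + Veh points, which was a condition for naming a gene, and the Npy2r points of each group lie nearly on top of each other.

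Among glutamate receptor genes more were higher than lower in Non + Dox. Of 31 tested subunits and auxiliary proteins, 9 (29%) were higher and 1 (3.23%) was lower at an unadjusted p under 0.05, beside 6.59% and 4.03% of all rows, a split over all rows that turned with quantile normalization, and their median change was 0.08, against 0.01 over all rows. Gria1, the GluA1 subunit of AMPA receptors, was at 14.18 and 14.21 in Non + Dox, against 13.55, 13.43 and 13.56 in Non + Veh, a difference of 0.68 (adjusted p = 0.234). Grm5, a metabotropic receptor, was higher by 0.48 and Grin3a and Grin2b, subunits of NMDA receptors, by 0.45 and 0.23. Neto1, an auxiliary protein of kainate receptors, was higher by 0.48. Cacng2, the AMPA receptor protein stargazin, was the lower one, at 11.81 and 11.75 in Non + Dox and at 12.34, 12.26 and 12.26 in Non + Veh. Cacng2 and Gria1 differed in opposite directions with no overlap between the groups. Of 10 GABA-A receptor genes, 2 were higher and 1 lower. Gabra5, an extrasynaptic subunit, was higher by 0.36 in Non + Dox, and in Tg cortex it differed by -0.42.

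Ion channel genes had members in both directions. Beside 10.6% of all rows, 42.9% of calcium, 57.1% of sodium and 16.7% of potassium channel genes were at an unadjusted p under 0.05. Of 14 calcium channel genes 5 were higher and 1 lower at an unadjusted p under 0.05. Cacna1e, the pore of R-type channels, was at 13.65 and 13.68 in Non + Dox, against 13.18, 13.33 and 13.26 in Non + Veh (difference 0.41, adjusted p = 0.234), and Cacna1c, the pore of an L-type channel, was higher by 0.31. Of 7 sodium channel genes, 2 were higher and 2 lower. Scn3b, a beta subunit, was at 11.76 and 11.80 in Non + Dox and at 11.20, 11.26 and 10.97 in Non + Veh, a difference of 0.64. Scn1a, the pore of the Nav1.1 channel of fast-spiking interneurons, was at 12.96 and 12.40 in Non + Dox, against 13.19, 13.21 and 13.13 in Non + Veh, a change of -0.49, but -0.21 without Non + Dox 2. Scn3b and Scn1a both separated the groups, in opposite directions. Of 54 potassium channel genes 2 were higher and 7 lower. Beside Kcnab3 and Kcnh5, Kcna2, a channel of axons, differed by -0.59, and Kcnj10, an inward rectifier of glia, by -0.54, whereas Kcnn3, a calcium-activated channel, was higher by 0.44.

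Genes of transmitter release, calcium signalling and the cytoskeleton held a few members with small p-values. The share at an unadjusted p under 0.05 was 23.1% for vesicle release, 22.7% for calcium sensors and kinases and 35.7% for phosphodiesterases. It was 13.6% for postsynaptic scaffold genes and 10.8% for the tau and microtubule list, beside 10.6% of all rows. Of 26 genes of vesicle release 2 were higher and 4 lower, the lower ones being Vamp1, Syt2 (-0.57), a calcium sensor of fast release that differed by -0.32 without Non + Dox 2, Cplx1 (-0.51), a SNARE clamp, and Snap25 (-0.29), a core SNARE protein. Of 22 calcium sensors and calmodulin kinases 3 were higher and 2 lower. Hpcal1, a visinin-like sensor, was at 8.73 and 8.59 in Non + Dox, against 8.25, 8.25 and 8.26 in Non + Veh, while Vsnl1, a close relative, was at 17.45 and 17.24 in Non + Dox and at 17.91, 18.11 and 17.67 in Non + Veh. The difference was 0.41 for Hpcal1 and -0.55 for Vsnl1, and neither gene's groups overlapped. Among 14 phosphodiesterases 1 was higher, Pde9a by 0.42, and 4 were lower, with Pde8a at 8.20 and 8.19 in Non + Dox, against 8.50, 8.45 and 8.50 in Non + Veh. Of 22 postsynaptic scaffold genes 3 were higher and 0 lower, among them Wasf1 (0.38), an actin nucleation factor of spines. Of 37 genes of tau, its kinases and microtubules 3 were higher and 1 lower. Tubb2a, a neuronal beta tubulin, was at 15.09 and 15.17 in Non + Dox and at 14.51, 14.65 and 14.40 in Non + Veh, a difference of 0.61 with an unadjusted p of 0.00014. Its near copy Tubb2b was higher by 0.68, and the probes of the 2 genes may share signal. Mapt, the mouse tau gene, differed by -0.07 (adjusted p = 0.788).

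Markers of cortical layers, interneurons and neighbouring regions were set beside these genes. An unadjusted p under 0.05 was reached by 53.8% of upper-layer, 28.6% of deep-layer and 36.8% of interneuron markers, beside 10.6% of all rows. Of 13 upper-layer markers 1 was higher and 6 were lower at an unadjusted p under 0.05, and the median change was -0.16. The higher one, Mdga1, was above the signal minimum on Non + Dox 2 alone. Its difference of 0.30 was 0.10 without that array. Rspo1, a Wnt agonist, was at 7.33 and 7.20 in Non + Dox, against 7.86, 8.03 and 7.82 in Non + Veh. Rorb, a nuclear receptor of layer 4, differed by -0.54, and Lamp5, a lysosome-related membrane protein of upper layers, by -0.84, with overlapping groups in both, and Rorb by -0.24 without Non + Dox 2. The list's mean level was 9.80 and 9.54 on the Non + Dox arrays and 9.93, 9.98 and 9.73 on the Non + Veh arrays. Of 14 deep-layer markers 3 were higher and 1 lower. Bcl11b, a transcription factor of subcerebral projection neurons, was at 10.02 and 10.16 in Non + Dox, against 9.46, 9.45 and 9.55 in Non + Veh, a difference of 0.61, and Nnat, a membrane protein of the endoplasmic reticulum, was at 9.09 and 10.47 in Non + Dox, against 8.20, 8.60 and 8.99 in Non + Veh. The Nnat difference of 1.18 was 0.49 without Non + Dox 2. Their median of 0.11 became -0.03 with sex as a term and -0.05 without Non + Dox 2. Of 19 interneuron markers 5 were higher, such as Calb2 (0.75, and 0.45 without Non + Dox 2), Reln (0.44) and Nos1 (0.43, and 0.23 without Non + Dox 2), and 2 were lower, Pvalb (-0.48), the calcium buffer of fast-spiking cells, and Crh (-0.31).

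Of 9 markers of hippocampus, a region that borders cortex in dissection, 4 were higher (44.4%, beside 6.59% of all rows) and 0 lower, with a median change of 0.22. They were Npy2r, Wfs1 (0.79), an endoplasmic reticulum protein of CA1 neurons, Prox1 (0.30), the transcription factor of dentate granule cells, and Rspo3 (0.28). Without Non + Dox 2 Rspo3 differed by 0.15, and without Non + Dox 2 and Non + Veh 3 Wfs1 by 0.50. The mean level of the list was 9.87 and 9.81 in Non + Dox, against 9.57, 9.52 and 9.40 in Non + Veh, with no overlap. Without Non + Dox 2 the median was 0.35. In Tg cortex the median of the list was -0.02, and 3 of the 9 had the same sign as in Non. Of 10 striatal markers 0 differed at an unadjusted p under 0.05 in either direction, and of 7 thalamic and basal forebrain markers 1, Calb2, did. The part of the makeup of the dissected tissue in the differences above was not tested, and in these bulk samples fewer cells of a type and less RNA per cell cannot be told apart.

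Oligodendrocyte genes were lower in Non + Dox at an unadjusted p under 0.05 more often than higher. Of 25 genes, 10 (40%) were lower and 0 higher, beside 4.03% and 6.59% of all rows, and the median change was -0.19 (-0.23 with sex as a term). Gjc3, a connexin of oligodendrocytes, was at 11.26 and 11.69 in Non + Dox and at 12.05, 12.19 and 12.04 in Non + Veh, a change of -0.63 (adjusted p = 0.234). Olig1, a transcription factor of the lineage, was at 7.70 and 7.75 in Non + Dox, against 8.15, 7.91 and 8.23 in Non + Veh. Both genes were lower on each Non + Dox array than on any Non + Veh array. Trf, the iron carrier transferrin, differed by -0.44 (-0.29 without Non + Dox 2), Mal, a myelin proteolipid, by -0.34 and Mag, a myelin adhesion protein, by -0.22, while the myelin genes Mbp (-0.14, adjusted p = 0.714) and Mog (0.04, adjusted p = 0.953) had larger p-values. The list's mean level was 9.60 and 9.59 in Non + Dox and 9.83, 9.77 and 9.77 in Non + Veh. Its median was -0.12 without Non + Dox 2 and -0.26 without Non + Dox 1.

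Cells of vessels and meninges varied with the array. Of 13 fibroblast markers 12 were higher in Non + Dox, as were 56.4% of all rows. At an unadjusted p under 0.05, 2 of them were higher, Mgp (0.56), a matrix protein, and Col6a1 (0.19), a collagen chain. Col6a1 was above the signal minimum on doxycycline arrays alone. With sex as a term the unadjusted p in limma was 0.079 for Mgp and 0.056 for Col6a1. The median change of the 13 markers was 0.42, but 0.15 without Non + Dox 2 and 0.66 without Non + Dox 1. Their mean level was 7.92 and 8.36 in Non + Dox, against 7.73, 7.72 and 7.92 in Non + Veh. Of 18 endothelial markers 3 were lower (16.7%, beside 4.03% of all rows), among them Tek (-0.49), the angiopoietin receptor, and 0 were higher. The endothelial median of -0.13 was -0.29 without Non + Dox 2 and -0.06 without Non + Dox 1. Of 6 mural markers 2 were lower (33.3%). One was Rgs5, a pericyte regulator of G protein signalling, at 10.56 and 10.37 in Non + Dox and at 11.07, 10.88 and 11.20 in Non + Veh, a change of -0.59. Ttr, the transthyretin of choroid plexus, was at 14.77 and 9.21 in Non + Dox and at 12.49, 10.87 and 14.64 in Non + Veh, a spread that did not follow the feed. Of 19 microglial markers, 10 complement genes and 13 heat shock proteins, 0 differed at an unadjusted p under 0.05, and their medians were -0.01, 0.05 and -0.04. Of 19 astrocyte markers 0 were lower and 2 higher (10.5%, beside 10.6% of all rows in either direction), Agt, angiotensinogen, and Fgfr3 (0.13), a growth factor receptor. Agt was at 6.54 and 7.37 in Non + Dox, against 6.16, 6.44 and 6.68 in Non + Veh, so that the groups overlapped, and its difference of 0.53 was 0.11 without Non + Dox 2.

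**Figure D2:**
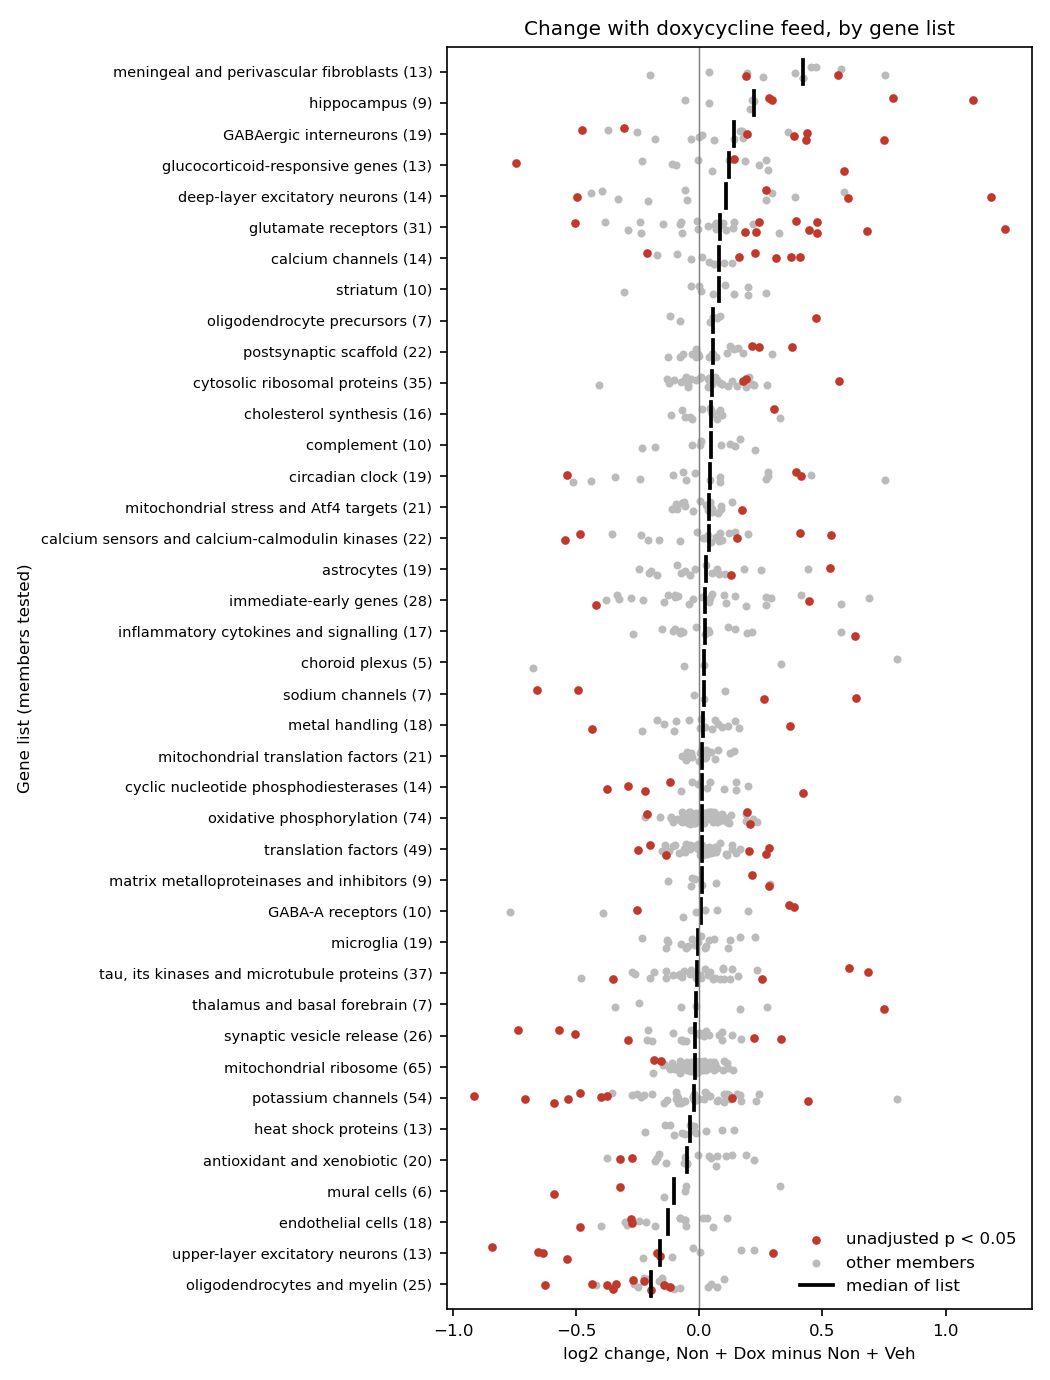
Log2 change in Non + Dox minus Non + Veh (x axis) of each tested member of the gene lists with 5 or more tested members, 1 list a row, with the number tested in brackets. Red points had an unadjusted p under 0.05, grey points did not, and black bars are list medians. The bars run from -0.19 for oligodendrocytes and myelin to 0.42 for meningeal and perivascular fibroblasts, and those of the mitochondrial lists lie near 0.

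Gene lists of mitochondrial translation and respiration had medians close to that of all rows. Of 65 proteins of the mitochondrial ribosome 0 were higher and 2 lower at an unadjusted p under 0.05, with a median of -0.02 and a range of -0.19 to 0.14. Mrpl58, a peptidyl-tRNA hydrolase of that ribosome, was at 8.42 and 8.34 in Non + Dox, against 8.51, 8.57 and 8.61 in Non + Veh. Of 21 mitochondrial translation factors 0 differed at that threshold (median 0.01). Of 74 nuclear genes of oxidative phosphorylation 2 were higher and 1 lower, the lower one being Atp5h, a subunit of ATP synthase, at 8.76 and 8.78 in Non + Dox and between 8.94 and 9.01 in Non + Veh. Among 21 genes of mitochondrial stress and Atf4 signalling 1 was higher, the partner factor Cebpg by 0.17. Each of these lists held fewer rows at an unadjusted p under 0.05, as a share, than the 10.6% of all rows.

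Of 35 cytosolic ribosomal proteins 3 were higher, and of 49 translation factors 3 were higher and 3 lower. The share at an unadjusted p under 0.05 was 8.57% and 12.2%, near the 10.6% of all rows. The ribosomal ones were Rpl41 (0.57), Rpl19 (0.19) and Rps20 (0.18). The cluster ID of Rpl41 names chromosome 14, whereas the gene is on chromosome 10. Without Non + Dox 1, Rpl19 differed by 0.05 and Rps20 by 0.07. Eif5a2, an elongation factor, differed by -0.25 and Eif1a, a factor of start site choice, by 0.28. Of 9 metalloproteinases and their inhibitors 2 were higher (22.2%, beside 6.59% of all rows) and 0 lower. Timp2, an inhibitor, was higher by 0.28 and Mmp16, a membrane protease, by 0.22 (0.08 without Non + Dox 1), with overlapping groups for Mmp16. With sex as a term Timp2 differed by 0.20 and Mmp16 by 0.18, at an unadjusted p in limma of 0.16 and 0.105. Of 18 genes of metal handling 11.1% were at an unadjusted p under 0.05, near the 10.6% of all rows. Trf was the 1 lower gene and the 1 higher gene was Slc30a1, a zinc exporter. It was at 8.70 and 8.75 in Non + Dox, against 8.37, 8.23 and 8.47 in Non + Veh, a difference of 0.37 (0.43 with sex as a term). Of 17 inflammatory genes Tgfb2, a growth factor of the TGF-beta family, was at 7.74 and 7.74 in Non + Dox and at 7.14, 7.03 and 7.15 in Non + Veh, 0.63 higher, and in Tg cortex it differed by 0.04.

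Genes that follow activity, time of day and stress hormones were read beside the 10.6% of all rows at an unadjusted p under 0.05. Of 28 immediate-early genes 1 was higher, Btg2 (0.45), an antiproliferative factor, and 1 lower, Dusp6 (-0.42), a phosphatase of ERK. Of 19 clock genes 2 were higher, Tef (0.39), an output factor of the clock, and Bhlhe41 (0.41). The 1 lower was Rorb, which is also counted above among the upper-layer markers. With sex as a term the unadjusted p in limma was 0.0575 for Tef and 0.129 for Bhlhe41. Of 13 glucocorticoid-responsive genes 2 were higher and 1 lower. Ddit4, an inhibitor of mTOR signalling, was at 7.26 and 7.15 in Non + Dox and at 6.41, 6.57 and 6.87 in Non + Veh, a difference of 0.59, and Cdkn1a, a cell cycle inhibitor, differed by -0.74 (-0.46 without Non + Dox 1). The share at that threshold was 7.14% of immediate-early genes, 15.8% of clock genes and 23.1% of glucocorticoid-responsive genes.

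MicroRNA genes were read as clusters over the precursor's gene, not as mature strands. Of 643 such clusters with 1 symbol, 254 passed the filter on low values, and 43 of these were higher (16.9%) and 8 lower (3.15%) at an unadjusted p under 0.05, beside 6.59% and 4.03% of all rows. A cluster that passed the filter through 1 group alone had to differ. Of the 215 whose mean over the 11 arrays was above the minimum, 39 were higher and 7 lower. Of the 6 microRNA genes with the smallest p, the mature 5p or 3p strands of 3 are shown, from RefSeq on GRCm38.p6, with the seed (bases 2 to 8), by which a microRNA finds its targets, in capitals.
mmu-miR-335-5p: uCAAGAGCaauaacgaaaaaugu
mmu-miR-29a-3p: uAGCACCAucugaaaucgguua
mmu-miR-708-5p: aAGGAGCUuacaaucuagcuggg
They lie at chr6:30741314-30741336 on the plus strand, chr6:31062673-31062694 on the minus strand and chr7:96249450-96249472 on the plus strand. The 3 seeds differ, and that of miR-29a-3p is shared by 3 of 1679 mature names in the table. Mir335 was at 7.20 and 6.83 in Non + Dox, against 6.14, 6.17 and 5.60 in Non + Veh, a difference of 1.05, and it passed the filter through the Non + Dox arrays alone. Mir29a was at 7.24 and 7.46 in Non + Dox and at 6.11, 6.43 and 6.70 in Non + Veh, a difference of 0.93. Mir708 was higher by 0.92. All Non + Veh values of Mir335 and Mir29a were below the signal minimum of the filter.

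The same feed was set beside these values in Tg cortex, where it also suppresses the tau transgene, with no array in common. In Tg cortex 87 rows passed (0.683%), 10 higher and 77 lower, and 2054 (16.1%) were at an unadjusted p under 0.05, 741 higher (5.81%) and 1313 lower (10.3%). With quantile normalization 1250 were higher and 1025 lower at that threshold, so the split turned with the scaling. The shares of rows by sign that follow are of the values as deposited. The count that passed was 0 with all 12 arrays and 3 to 158 with 1 of the 11 arrays left out. The feed changes of 57% of all rows had the same sign in Non and Tg. Of the 840 rows that were higher in Non + Dox at an unadjusted p under 0.05, 598 (71.2%) were also higher in Tg + Dox, where 43.08% of all rows were. Of the 514 lower rows, 443 (86.2%) were also lower in Tg + Dox, where 56.83% of all rows were. An unadjusted p under 0.05 in Tg, in the same direction, was reached by 193 of the higher rows and 137 of the lower ones, while 40 and 1 reached it in the opposite direction. Over all 12745 rows the Pearson correlation of the feed changes in Non and Tg was 0.162 across genes, which are not independent. Of the 24 named genes, all 12 higher ones and 11 of the 12 lower ones had the same sign in Tg, the exception being Mapk11 (0.16 in Tg).

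Some genes differed by about as much in Tg cortex. Ndst4, below the signal minimum on every Tg + Veh array, differed by 0.95, Wfs1 by 0.72, Kcnab3 by -0.84 and Scn4b by -0.65 in Tg. Cacna1e (0.46), Hpcal1 (0.44), Pde9a (0.48), Wasf1 (0.37) and Pde8a (-0.42) passed the test there, with adjusted p-values of 0.032, 0.032, 0.032, 0.037 and 0.018.

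**Figure D3:**
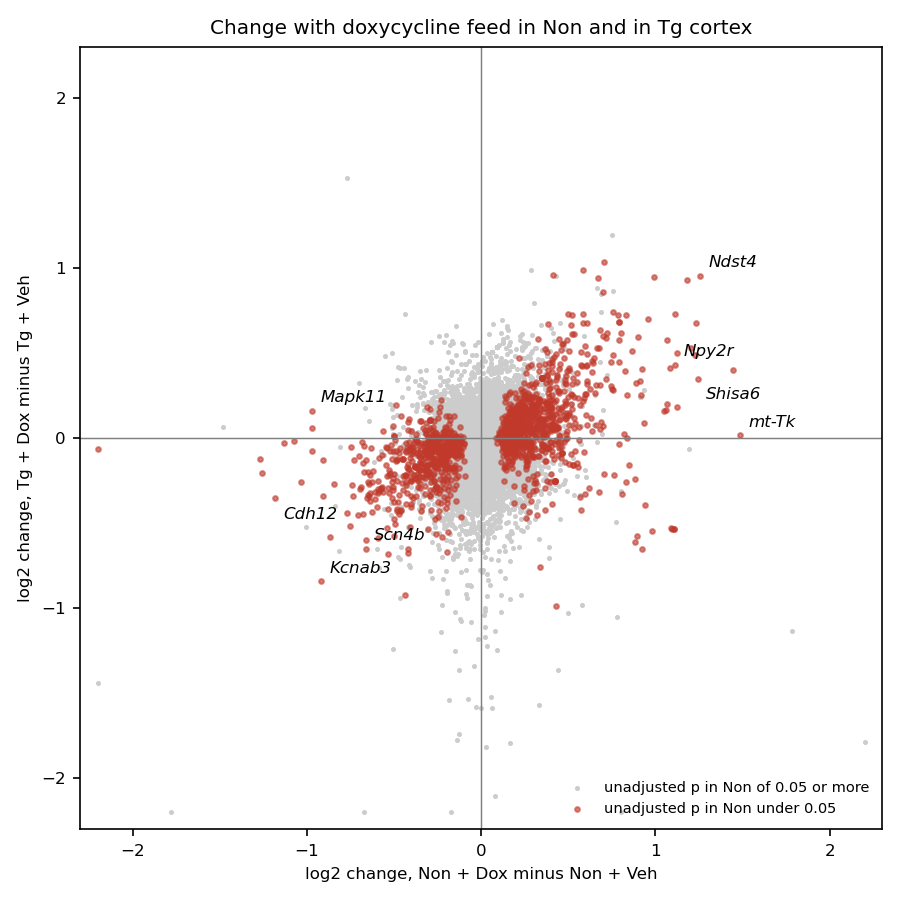
Log2 change with doxycycline feed in Non cortex (x axis, Non + Dox minus Non + Veh) and in Tg cortex (y axis, Tg + Dox minus Tg + Veh) of 12741 rows, without 4 strongly sex-linked genes. Red points had an unadjusted p under 0.05 in Non, and 7 rows beyond 2.2 are drawn at the edge. Red points on the left lie mostly below 0 on the y axis. Mapk11 lies above it, and mt-Tk, on the right, lies near it.

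Whether the feed difference itself differed between genotypes was tested as an interaction in limma, and 0 of 12745 rows (0%) passed, the smallest adjusted p being 0.0899. At an unadjusted p under 0.05 there were 1047 rows (8.21%), 849 (6.66%) with a lower and 198 (1.55%) with a higher change in Tg than in Non. With the arrays quantile normalized, the same threshold gave 540 lower and 530 higher, so that split depended on the scaling. The 8 named rows of smallest p were all lower in Tg + Dox than in Tg + Veh. Scrg1, a small secreted protein of glia, was 0.43 higher with feed in Non and differed by -0.99 in Tg. Selenop, a selenium carrier, differed by -0.02 in Non and -0.52 in Tg, Mlc1, an astrocyte membrane protein, by 0.10 and -0.66, and Lgals1, a galectin, by 0.28 and -0.44. Scrg1 and Lgals1 separated Non + Dox from Non + Veh, and Scrg1 was at 10.12 and 10.08 in Non + Dox, against 9.52, 9.79 and 9.70 in Non + Veh. In the fit without Non + Dox 2, 12 rows passed the interaction test.

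The two-way test of the methods at 0.01 and a match of the group profiles to set patterns, run here on 12745 rows and without the methods' later test of which patterns held more genes than chance, placed 150 rows (1.18%) on the pattern of doxycycline only in Non, 82 higher and 68 lower. Leaving out predicted and microRNA genes, the 6 largest higher ones were Epha6, Pkp2, Npy2r, Doc2b, Tnfaip8l3 and Wipf3, and the 6 largest lower ones Cdh12, Abcd2, Gcnt4, Gjc3, Rgs5 and Anxa4. Although the pattern is named for Non mice, all 12 had the same sign in Tg, 6 of them at an unadjusted p under 0.05. Cdh12 was at 11.86, 12.45 and 12.59 in Tg + Dox, against 12.74, 12.73 and 12.49 in Tg + Veh, a smaller change (-0.35) than the -1.18 in Non, with an adjusted p of 0.542 for the interaction. Npy2r was at 7.39, 6.97 and 6.51 in Tg + Dox and at 6.61, 6.30 and 6.66 in Tg + Veh. The count was 404 without Non + Dox 1, 402 without Non + Dox 2 and 89 to 197 without 1 of the other arrays.

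**Figure D4:**
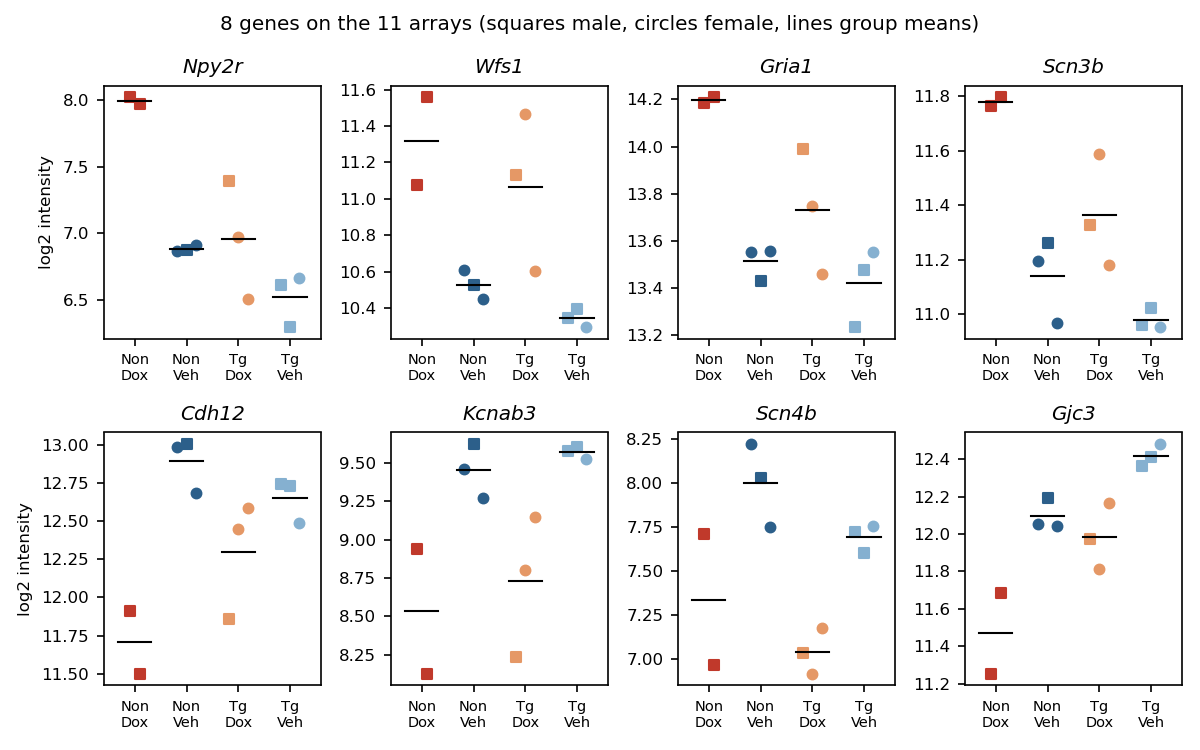
Log2 intensity (y axis, its own range in each panel) of 8 genes on the 11 arrays in the groups Non + Dox, Non + Veh, Tg + Dox and Tg + Veh (x axis). Squares are male and circles female arrays, and lines are group means. For Npy2r, Gria1, Scn3b and Gjc3 both Non + Dox arrays lie beyond the arrays of the other 3 groups, whereas Kcnab3 and Scn4b were low in Tg + Dox as well.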

How the data were processed

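RNA of brain cortex was measured on Clariom D arrays. The authors computed signals with the Robust Multi-Array algorithm and deposited them as log2 intensities, annotated to gene symbols with NetAffx files. The aligning of probes and the scan dates are not given in the sources used here. Of 65956 transcript clusters, 30638 had 1 symbol, 2176 had several and 33142 had none. Symbols were updated through the RefSeq table, which matched 30636. The Tg + Veh array numbered replicate 4 failed the study's quality control and was left out. Rows above the signal minimum of the study's methods on any of the 11 arrays were fitted with limma 3.58.1 in R 4.3.3 (lmFit and eBayes, 1 coefficient per group, no covariate, 2-sided), with Benjamini-Hochberg adjustment over 12745 rows. The code was tested on simulated data with 200 changed genes.

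Genes were named by rule. Those with the largest change were up to 12 in each direction whose groups did not overlap and whose unadjusted p was under 0.05 with and without sex as a term, leaving out predicted, sex-linked, microRNA, small nucleolar RNA, ribosomal RNA, olfactory and vomeronasal receptor and insertion-site genes. Further names were up to 4 members of each list with the smallest p, the label checks, 6 microRNA genes, 8 interaction rows, 6 rows of each sign on the Non pattern, and other list members where a list's count is given. Camk2a, Slc17a7 and the mitochondrial clusters were added after values were seen. The comparison, its 46 lists and their members were chosen with earlier results of these data known. Alternatives changed the arrays, the covariate, the block, the filter, the variance model and the scaling.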

Additional observations from a re-analysis of the deposited data

How the results depend on the processing

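For feed in Non, 0 rows passed; the 5 Non arrays alone gave 1 (Npy2r), and the fit without Non + Dox 2 and Non + Veh 3 gave 1 (Gm22973, at 1.54). Leaving out each array in turn gave 0 to 3, with 3 predicted genes without Non + Dox 2 and 2 without Non + Veh 3. The methods' two-way test of feed, over both genotypes, passed 647 rows at 0.01 and 4 after Benjamini-Hochberg adjustment. With no filter on low values, 2586 of 30638 rows were at an unadjusted p under 0.05. Whether the replicate numbers pair the samples could not be decided, since the deviations of 2 Non + Dox arrays from their mean mirror each other. Deviations of same-numbered Non arrays correlated at 0.063 and 0.088. With the replicate number as a block, 0 rows passed in Non (1122 at an unadjusted p under 0.05), 3 in Tg and 83 lay on the Non pattern. For feed in Tg, 87 rows passed; 25 with sex as a term, 0 with all 12 arrays, 3 without Non + Dox 2 and Non + Veh 3, 8 with no filter, 7 with no moderation of the variance, and 3 to 158 with each array left out. The interaction had 1 row without Non + Dox 2 and Non + Veh 3, and 0 to 12 with each array left out. The Non pattern held 150 rows, 308 with no filter, 43 at a correlation of at least 0.95, and 89 to 404 with each array left out. Of the named genes, Selenop (-0.02) was at 0.0119 with sex as a term and 0.0171 in males only. The causes were not tested. The 2 Non + Dox arrays limit the precision.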
